A study of Mus musculus with 6 samples.

Results

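The genes described here are 32 mouse genes of cholesterol synthesis, uptake, storage and efflux, chosen by symbol from the 18124 genes of a deposited count table. Each of the 32 had 1 row in the table and passed the filter on low counts. They are 19 enzymes or branch enzymes of synthesis, the lipoprotein receptor gene Vldlr, regulators and a transport protein of the SREBP system (Insig1, Insig2, Scap, Srebf2, Stard4), the liver X receptors (Nr1h2, Nr1h3) with 4 of their targets (Mylip, Abca1, Abcg1, Apoe), and the esterifying enzyme gene Soat1.

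The RNA came from mesenchymal stem cells, which were sorted from the quadriceps muscle of 6 naïve male mice of the Col1-GFP genotype as cells positive for the collagen 1-driven reporter and for Sca-1, expanded, and used at passage 4. All cells spent 72 hours in medium conditioned for 48 hours by bone marrow-derived macrophages of wild type mice, differentiated for 7 days with M-CSF, and the 2 groups differ in the macrophages. In the control group (3 libraries) the macrophages were non-senescent. In the senescent group (3 libraries) they had been exposed to 300 µM hydrogen peroxide for 3 hours, again after 3 days, and then cultured for 14 more days. For each medium 2 collections were pooled, and no source used here gives the culture time of the control macrophages or says that libraries of a group come from separate cell isolates. The spread behind each p-value may therefore be technical.

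Cells make cholesterol from acetyl-CoA through mevalonate, the isoprenyl diphosphates, squalene and lanosterol. When sterol in the endoplasmic reticulum is low, Scap escorts the transcription factor SREBP2 (encoded by Srebf2) to the Golgi for cleavage, and the released factor raises transcription of the synthesis genes, whereas Insig proteins hold the complex back when sterol is plentiful. Liver X receptors (LXR) bind oxysterols and raise genes of sterol export, among them the transporters Abca1 and Abcg1.

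Library totals ran from 17228200 to 21659400 estimated counts. The sorted cells' markers were abundant: Col1a1 was at 5361 ± 69.8 CPM (CPM are counts scaled to a common library size; mean ± SD, n = 3) in control and 7516 ± 229 in senescent medium, and Ly6a, the gene of Sca-1, at about the same level in both (log2 fold change 0.03 ± 0.035 SE). Pdgfra passed the test with a log2 fold change of −0.29 ± 0.036, and the fibroblast proteoglycan gene Lum was at 0 to 0.24 CPM. Of 12 macrophage markers 5 were listed, that is, had a row in the count table. Their summed level was 18.95 to 21.97 CPM in control and 18.08 to 24.19 CPM in senescent medium. Csf1r, the M-CSF receptor gene, was at 4.62 ± 1.06 and 3.20 ± 0.726 CPM and Cd68 at 0.958 to 2.45 CPM. Ptprc and Adgre1 were looked up and had no row in the count table, where the smallest summed count of a row was 10. Of 7 muscle cell markers 2 were listed, Des and Acta1, while Myod1, Myf5, Pax7, Myog and Ckm had no row. The 2 listed genes both rose, with a summed level of 9.41 to 11.1 CPM in control and 17.45 to 19.78 CPM in senescent medium. Des, a muscle filament gene, was at 1.63 ± 0.245 and 5.15 ± 0.772 CPM (log2 fold change 1.65 ± 0.20). The skeletal actin gene Acta1 was at 8.49 ± 1.03 and 13.8 ± 0.612 CPM (0.70 ± 0.11). Of 5 endothelial markers 4 were listed, with summed levels of 24.2 to 26.6 and 26.4 to 33.2 CPM. Most of that sum was Tek, at 23.8 ± 0.957 and 26.9 ± 2.99 CPM, which did not pass (0.18 ± 0.078). Vwf did not pass either (−0.08 ± 0.41), and Pecam1, at 0 to 0.28 CPM, was not tested. Only the VEGF receptor gene Kdr passed, rising from 0.71 ± 0.176 to 1.68 ± 0.458 CPM (1.25 ± 0.34). The part of these markers in the results below was not tested. In bulk RNA, fewer cells of a type and less RNA per cell cannot be told apart.

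Genes of cholesterol synthesis were lower in the cells kept in senescent macrophage medium, with falls in every section of the pathway. Of the 32 genes, 25 fell and 3 rose (edgeR quasi-likelihood test, Benjamini-Hochberg adjusted p below 0.05 over 14644 genes), and 4 did not pass. Among all tested genes 49.5% passed, 24.9% as falls and 24.6% as rises. The median log2 fold change, senescent over control medium, was −0.61 for the 32 genes and −0.001 for all tested genes. The CPM values of both media did not overlap for 29 of the 32 genes, against 55.8% of all tested genes. With libraries scaled by their totals alone, the split over all genes went from 3607 higher and 3644 lower to 2589 higher and 4813 lower, and the split over the 32 genes to 2 higher and 26 lower.

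**Figure D1:**
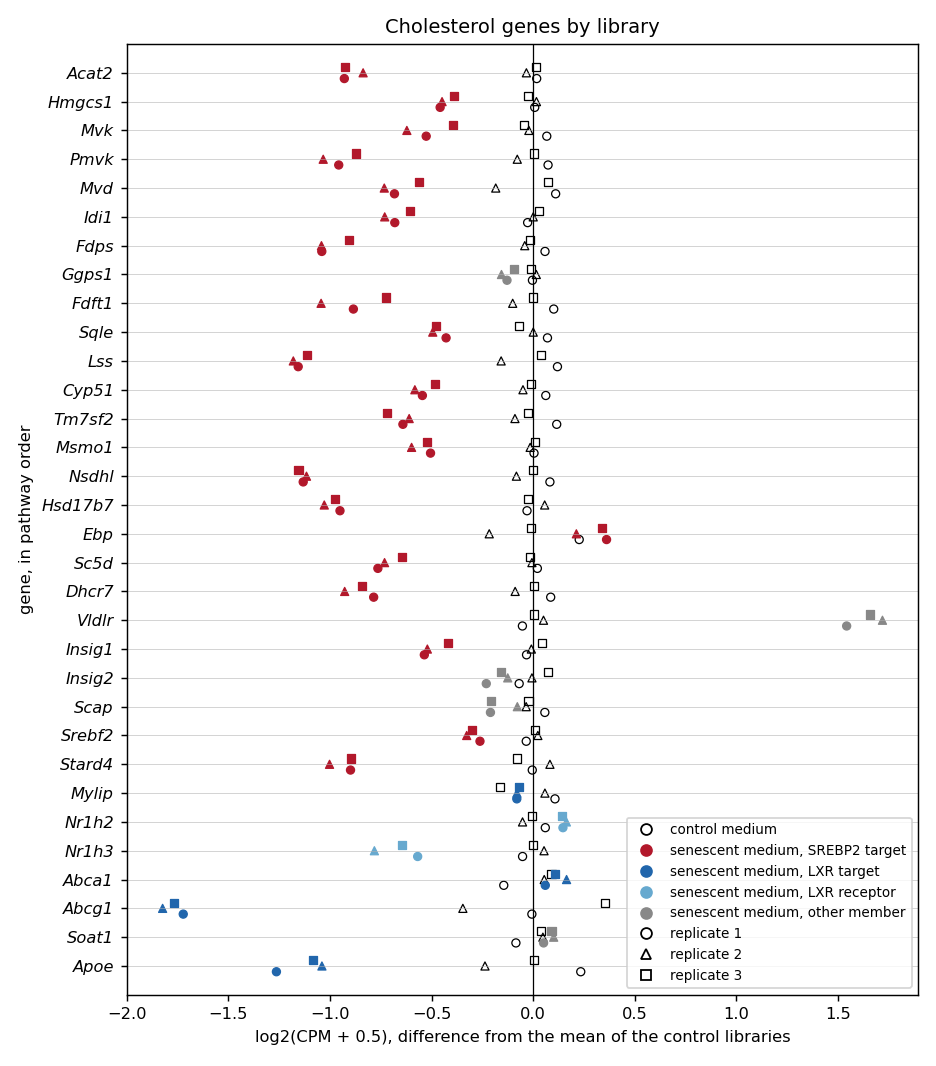
Each gene's log2(CPM + 0.5) in every library, as the difference from the mean of the 3 control libraries, with genes in pathway order from top to bottom. Open symbols are control libraries and filled symbols senescent-medium libraries, with shape giving the replicate; among the SREBP2 targets (red) only Ebp lies to the right of the control mean, and Vldlr has the largest rise.

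Set by regulator, 21 of the genes are textbook SREBP2 targets (the synthesis enzymes other than Ggps1, with Insig1, Srebf2 and Stard4) and 4 are LXR targets. Beside 24.9% falls and 24.6% rises among all tested genes, 20 of the SREBP2 targets fell and 1 rose. Their median log2 fold change was −0.69, with a range from −1.17 (Lss) to 0.31 (Ebp). Of the LXR targets 2 fell, 0 rose and 2 did not pass, with values from −2.23 (Abcg1) to 0.11 (Abca1). Their median, −0.62, lies between those pairs, and with a filter of at least 10 CPM in 3 libraries, which removed Abcg1, it was −0.09. No test of the difference between these sets was made, since they were drawn up with results of these data known. Relative to the control mean, the median of the SREBP2 targets was −0.68, −0.73 and −0.65 (log2) in senescent-medium replicates 1, 2 and 3, and 0.06, −0.03 and −0.0004 in the controls. In each senescent-medium library 20 of the 21 lay below the control mean. The matching share of all tested genes was not computed by library. Over all libraries 7332 of the 14644 tested genes had a log2 fold change below 0.

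Promoter sequence was compared for the 27 of the 32 genes that have an entry in RefSeq's promoter windows (build GRCm38.p6, from 250 bases before to 50 bases after a start; the counts were made on mm39). Both strands were searched for the sterol regulatory element TCACNCCAC, the NF-Y box CCAAT, which often accompanies SREBP sites, the Sp1 box GGGCGG, and the direct repeat that LXR binds, spelled here as 2 copies of GGTNA with 5 bases between them. The CCAAT box was in a window of 16 of 17 SREBP2 targets (94.1%), against 41.1% of all 27025 genes with windows. GGGCGG was in 16 of the 17 as well (38.2% of all genes). The sterol element in this spelling was found in 1 of them, Hmgcs1 (1.44% of all genes), and the direct repeat in 1 of 3 LXR targets, Abca1 (0.818% of all genes). A match is only a description of these letters in this window. Shares among the genes expressed in these cells were not computed, so these contrasts cannot be called particular to SREBP2 targets. The 250 bases before the start are shown for the gene with the sterol element (Hmgcs1), for a pathway enzyme with paired CCAAT boxes (Idi1), for an enzyme that fell to 44.4% of its control mean (Lss), for the 1 SREBP2 target that rose (Ebp) and for the transporter with the direct repeat (Abca1). They read 5′ to 3′ on the gene's strand, with matches to the sterol element, the CCAAT box (ATTGG where it lies on the other strand) and the direct repeat in capitals.
Hmgcs1, chr13:119690101-119690350, + strand: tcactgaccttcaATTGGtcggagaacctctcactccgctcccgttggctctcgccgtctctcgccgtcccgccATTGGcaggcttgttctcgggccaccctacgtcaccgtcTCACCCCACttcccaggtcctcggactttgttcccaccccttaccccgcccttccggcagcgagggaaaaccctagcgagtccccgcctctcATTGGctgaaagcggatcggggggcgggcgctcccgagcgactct
Idi1, chr13:8885356-8885605, + strand: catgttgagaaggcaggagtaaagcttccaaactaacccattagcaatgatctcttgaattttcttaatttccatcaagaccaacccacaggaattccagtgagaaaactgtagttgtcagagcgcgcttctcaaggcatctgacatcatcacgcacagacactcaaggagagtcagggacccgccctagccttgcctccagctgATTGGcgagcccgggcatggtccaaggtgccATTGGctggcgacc
Lss, chr10:76531355-76531604, + strand: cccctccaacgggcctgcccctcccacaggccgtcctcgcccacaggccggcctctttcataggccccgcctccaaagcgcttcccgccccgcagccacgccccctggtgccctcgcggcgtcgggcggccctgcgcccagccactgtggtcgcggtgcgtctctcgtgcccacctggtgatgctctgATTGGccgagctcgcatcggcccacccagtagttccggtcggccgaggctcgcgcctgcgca
Ebp, chrX:8193513-8193762, − strand: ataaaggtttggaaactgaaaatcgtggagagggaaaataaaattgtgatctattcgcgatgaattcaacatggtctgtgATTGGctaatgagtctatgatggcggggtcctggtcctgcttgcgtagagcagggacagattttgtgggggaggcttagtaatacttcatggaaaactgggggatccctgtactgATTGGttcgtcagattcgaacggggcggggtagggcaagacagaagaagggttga
Abca1, chr4:53159896-53160145, − strand: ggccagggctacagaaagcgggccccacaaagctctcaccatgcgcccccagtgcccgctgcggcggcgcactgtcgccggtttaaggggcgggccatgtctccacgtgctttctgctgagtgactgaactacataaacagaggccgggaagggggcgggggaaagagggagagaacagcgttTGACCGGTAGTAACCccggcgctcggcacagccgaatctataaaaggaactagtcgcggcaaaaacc
The sterol element of Hmgcs1, TCACCCCAC, begins at base −137 from the start and has CCAAT boxes on both sides, at −176 and −45. The repeat of Abca1, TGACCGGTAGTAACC on the gene's strand, begins at −67. Ebp, which rose, and Idi1, which fell, both hold 2 CCAAT boxes in the stretch shown, and Lss holds 1.

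Of the first enzymes, from acetyl-CoA to isopentenyl diphosphate, the 5 among the 32 genes all fell (median log2 fold change −0.67). Counts by section, here and below, cover only enzymes among the 32 genes, not every enzyme of the pathway. They stand beside the 24.9% of all tested genes that fell. Acat2 (ENSMUSG00000023832), the cytosolic thiolase that joins acetyl-CoA units, was at 60.7, 58.6 and 60.6 CPM in the controls and at 31.3, 33.4 and 31.3 CPM in senescent medium. Its libraries stood far apart by medium (−0.91 ± 0.056 on the log2 scale, adjusted p = 1.02e-14, edgeR). Hmgcs1 (ENSMUSG00000093930), the cytosolic HMG-CoA synthase, went from 134, 135 and 132 CPM to 97.2, 97.9 and 102 CPM. This was the smallest fall among the 5, at −0.43 ± 0.040, and had no overlap. Of Hmgcs1's exon length, 12.1% is shared with an antisense gene in GENCODE M21. The kinase gene Mvk changed by −0.52 ± 0.066 and the decarboxylase gene Mvd by −0.67 ± 0.085. Pmvk, which adds the second phosphate to mevalonate, had the lowest control level of the 5 per kilobase of exon (5.34 CPM per kilobase) and the largest fall, from 9.63, 8.62 and 9.17 CPM to 4.46, 4.21 and 4.76 CPM (−1.02 ± 0.13).

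At the isoprenyl step 2 of 3 enzymes fell. Idi1, which isomerises isopentenyl diphosphate, was at 88.9, 90.6 and 92.3 CPM in the controls and at 56.3, 54.4 and 59.3 CPM in senescent medium, a log2 fold change of −0.68 ± 0.047. Fdps, which makes farnesyl diphosphate, fell to 49.8% of its control mean; 26.7% of its exon length is shared with a predicted gene on the same strand. Ggps1 (ENSMUSG00000021302), whose product geranylgeranyl diphosphate leaves the sterol path for protein prenylation, was at 45.7, 46.3 and 45.4 CPM and at 41.9, 41.1 and 42.9 CPM. Its libraries did not overlap, but the change of −0.13 ± 0.055 did not pass (adjusted p = 0.0548, edgeR). Ggps1 passed with library totals (adjusted p = 0.00251) and with the filter of 10 CPM (adjusted p = 0.0434), at −0.21 and −0.13, and missed the threshold under the other 15 alternatives.

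From squalene to lanosterol all 3 enzymes fell. Fdft1, squalene synthase, was at 67.5, 58.6 and 62.9 CPM in the controls and at 33.8, 30.3 and 37.9 CPM in senescent medium (−0.89 ± 0.070); 18.3% of its exon length is shared with the cathepsin gene Ctsb on the opposite strand. Sqle, the oxygen-using squalene epoxidase, fell from 91.7 ± 4.50 to 66.2 ± 1.58 CPM (−0.47 ± 0.047). Lss (ENSMUSG00000033105), which closes the sterol rings, went from 53.7, 44.2 and 50.7 CPM to 21.9, 21.5 and 22.6 CPM. Senescent-medium levels of Lss were close to each other while control replicate 2 was the lowest control, and the change was −1.17 ± 0.070 (adjusted p = 7.74e-15, edgeR).

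After lanosterol 7 of 8 enzymes fell and Ebp rose. Cyp51, the lanosterol demethylase, went from 126 ± 5.07 to 86.9 ± 3.05 CPM (−0.54 ± 0.044), and the methyl oxidase gene Msmo1 from 86.9 ± 0.799 to 59.5 ± 2.03 CPM (−0.54 ± 0.046). Nsdhl (ENSMUSG00000031349), which acts with Msmo1 and Hsd17b7 in removing the methyl groups at carbon 4, was at 51.0, 45.4 and 48.1 CPM in the controls and at 21.7, 21.9 and 21.3 CPM in senescent medium. That is 45.0% of the control mean (−1.15 ± 0.064, adjusted p = 1.11e-15, edgeR), beside 68.5% for Msmo1. Hsd17b7, the ketoreductase of the same complex, fell to 50.4%. The desaturase gene Sc5d changed by −0.72 ± 0.049, the terminal reductase gene Dhcr7 by −0.87 ± 0.083 and the sterol reductase gene Tm7sf2 by −0.69 ± 0.12. Tm7sf2 shares 12.1% of its exon length with Vps51 on the same strand.

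Ebp (ENSMUSG00000031168), the isomerase that shifts a ring double bond between the steps of Hsd17b7 and Sc5d, moved against its neighbours. It was at 21.3, 15.5 and 18.0 CPM in the controls and at 23.4, 21.1 and 23.0 CPM in senescent medium. Control replicate 1 lay above senescent-medium replicate 2, so the media overlapped, and control replicate 2 was lowest. The rise was 0.31 ± 0.092 on the log2 scale (adjusted p = 0.00658, edgeR), and without control replicate 2 it was 0.20 and missed the threshold (adjusted p = 0.0880). The ratio of Ebp to Dhcr7, both per kilobase of exon, was 2.04, 1.68 and 1.83 in the controls and 4.17, 4.16 and 4.26 in senescent medium (exact permutation test, two-sided, p = 0.10). That is the smallest p that 3 against 3 allows. This ratio and those below were chosen with the values known, so their p-values lend no support.

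**Figure D2:**
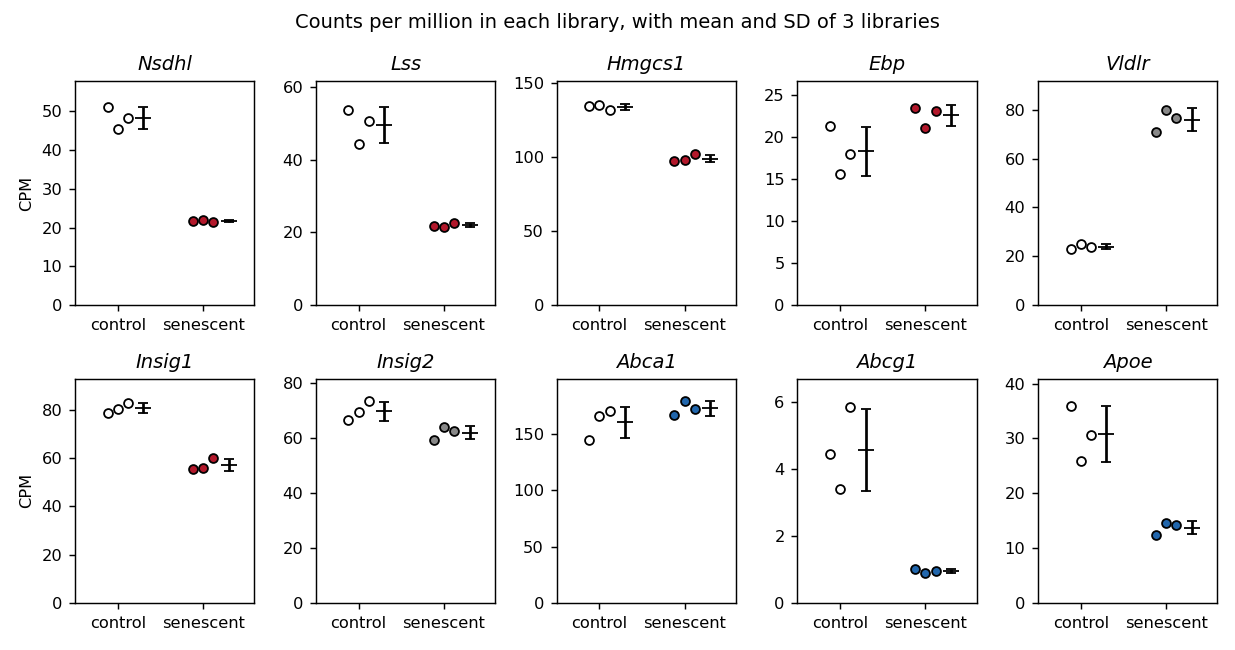
CPM of 10 genes in each library, with open circles for control and filled circles for senescent macrophage medium; bars are mean and SD of 3 libraries and each vertical axis starts at 0. Nsdhl, Lss, Hmgcs1, Insig1, Insig2, Abcg1 and Apoe lie lower in senescent medium without overlap, Vldlr lies higher, and Ebp and Abca1 overlap.

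Summed per kilobase of exon, the 19 synthesis genes stood at 303 ± 7.78 CPM per kilobase in the controls and 191 ± 5.81 in senescent medium (SD, n = 3), which is 62.9%. Within the pathway the order of control levels per kilobase ran from Hsd17b7 (35.7), Hmgcs1 (29.1) and Cyp51 (28.6) down to Lss (4.59), Dhcr7 (4.26) and Tm7sf2 (2.46). Hmgcs1 and Cyp51 do not differ beyond their spread on that scale, and neither do Lss and Dhcr7. In senescent medium Hmgcs1 (21.5) stood above Hsd17b7 (18.0). Falls were found at both ends of this order, with Hsd17b7 at 50.4% and Lss at 44.4% of the control mean, and Dhcr7 at 54.5% and Tm7sf2 at 61.7%. Lengths are exon unions of GENCODE M21, so a gene with long rarely used exons gets a low value. Lss has the longest exon union of the 19, at 10787 bases. By CPM alone its control mean, 49.6, stood above those of Dhcr7 (24.8) and Tm7sf2 (10.9).

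**Figure D3:**
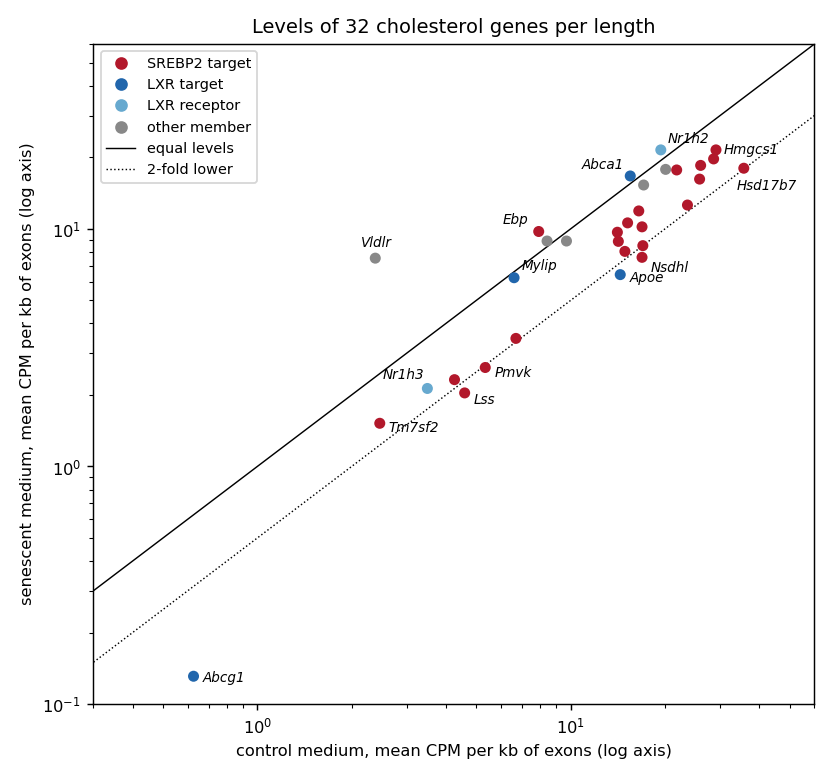
Mean CPM per kilobase of exon in control (horizontal) and senescent macrophage medium (vertical), both on log axes, for the 32 genes, with a solid line at equal levels and a dotted line at a level 2-fold lower. Most SREBP2 targets lie between the lines or just under the dotted one, Abcg1 and Apoe lie under it, and Vldlr lies far above the solid line.

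Vldlr (ENSMUSG00000024924), a receptor of the low-density lipoprotein receptor family that takes up triglyceride-rich particles and also binds reelin, was the 1 gene of lipoprotein uptake and had the largest rise of the 32. It was at 23.1, 24.9 and 24.0 CPM in the controls and at 70.8, 80.1 and 76.6 CPM in senescent medium. Every senescent-medium library was far above every control, with a mean at 316% of the control mean (log2 fold change 1.66 ± 0.060, adjusted p = 2.44e-20, edgeR). Across all 17 alternatives the value stayed between 1.58 and 1.71.

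Srebf2, Scap, Insig1, Insig2 and Stard4, the SREBP regulators and the sterol carrier among the 32 genes, all fell, by log2 fold changes from −0.17 to −0.95. Srebf2 (ENSMUSG00000022463) itself was at 153, 159 and 158 CPM in the controls and at 131, 125 and 127 CPM in senescent medium (−0.30 ± 0.039). Scap, the sterol-sensing escort, was at 132, 124 and 125 CPM and at 109.9, 120.5 and 110.1 CPM. The highest senescent-medium library of Scap stood just under the lowest control, and the change was −0.17 ± 0.043 (adjusted p = 0.00208, edgeR). Of Scap's exon length 13.2% is shared with 5830462I19Rik on the opposite strand. Stard4, which carries sterol between membranes and is a sterol-responsive gene, fell from 37.2, 39.5 and 35.3 CPM to 19.8, 18.4 and 19.8 CPM (−0.95 ± 0.070).

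The Insig genes, which encode paralogous retention proteins, both fell. Insig1 (ENSMUSG00000045294), the sterol-responsive one, was at 78.7, 80.0 and 82.9 CPM in the controls and at 55.4, 56.0 and 60.1 CPM in senescent medium (−0.49 ± 0.049). Insig2 (ENSMUSG00000003721) was at 66.4, 69.4 and 73.5 CPM and at 59.3, 63.9 and 62.5 CPM (−0.17 ± 0.050, adjusted p = 0.00510, edgeR). Neither overlapped between media. Per kilobase of exon, Insig1 stood above Insig2 in each control library, at 1.33, 1.29 and 1.27 times its level, and the ratio was 1.05, 0.984 and 1.08 in senescent medium (exact permutation test, two-sided, p = 0.10).

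The liver X receptor genes changed in opposite directions. Nr1h2 (ENSMUSG00000060601), the widely expressed receptor LXR beta, was at 67.8, 62.7 and 64.7 CPM in the controls and at 72.0, 72.9 and 71.7 CPM in senescent medium, a rise of 0.15 ± 0.048 (adjusted p = 0.00891, edgeR). The Nr1h2 call was lost with library totals (0.07, adjusted p = 0.232) and without control replicate 2 (0.12, adjusted p = 0.0574). Nr1h3 (ENSMUSG00000002108), LXR alpha, the form rich in liver, fat and macrophages, was at 8.45, 9.13 and 8.77 CPM and fell to 5.76, 4.90 and 5.43 CPM (−0.71 ± 0.13). Per kilobase, Nr1h2 exceeded Nr1h3 in every library, by 6.01, 5.15 and 5.53 times in the controls and 9.37, 11.1 and 9.90 times in senescent medium (exact permutation test, two-sided, p = 0.10).

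Of the exporters, the abundant one did not pass and the rare one fell. Abca1 (ENSMUSG00000015243), which loads cholesterol onto apolipoprotein A1, was at 145, 166 and 170.5 CPM in the controls and at 167, 179.5 and 172 CPM in senescent medium. The media overlapped, with control replicate 1 the lowest library, and the change was 0.11 ± 0.051 (adjusted p = 0.0938, edgeR). Abca1 passed without control replicate 3 (0.15, adjusted p = 0.0214) and missed the threshold without any other library; without control replicate 1 its change was 0.04 (adjusted p = 0.455). Abcg1 (ENSMUSG00000024030), which exports sterol to mature lipoproteins, was at 4.45, 3.41 and 5.85 CPM and fell to 1.01, 0.906 and 0.962 CPM. These are 79, 74 and 104 counts against 21, 17 and 20, the largest fall of the 32 genes (−2.23 ± 0.25, adjusted p = 5.12e-09, edgeR). Per kilobase, Abca1 stood at 22.9, 34.3 and 20.5 times Abcg1 in the controls and at 117, 140 and 126 times in senescent medium (exact permutation test, two-sided, p = 0.10).

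Apoe (ENSMUSG00000002985), the lipoprotein ligand that also accepts exported sterol, was at 36.0, 25.8 and 30.6 CPM in the controls and at 12.4, 14.6 and 14.1 CPM in senescent medium. All senescent-medium libraries were below all controls, at 44.5% of the control mean (−1.16 ± 0.11, adjusted p = 9.43e-08, edgeR). Macrophages express Apoe, Abcg1 and Nr1h3 strongly. The macrophage markers moved both ways beside these falls: Csf1r and Cd14 fell (−0.53 ± 0.19 and −1.14 ± 0.16), Lyz2 rose (0.80 ± 0.12) and Cd68 did not pass (0.53 ± 0.33), and their part in the result was not tested. Mylip, which marks lipoprotein receptors, Vldlr among them, for degradation, was at 22.9, 22.1 and 18.9 CPM and at 20.1, 20.1 and 20.2 CPM, with no change past the threshold (−0.08 ± 0.081, adjusted p = 0.408, edgeR). Soat1, which esterifies cholesterol for storage in droplets, was at 77.5, 85.0 and 84.4 CPM in the controls and at 85.3, 88.3 and 87.6 CPM in senescent medium (0.08 ± 0.046, adjusted p = 0.158, edgeR), and its value was −0.002 with library totals.

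Further genes of sterol and SREBP biology were taken from lists drawn up for this comparison, and their counts stand beside the 49.5% of all tested genes that passed (24.6% higher, 24.9% lower). Of 14 SREBP targets of fatty acid and acetyl-CoA metabolism 13 fell and 0 rose (median −0.49). Scd1 and Scd2, desaturases that make oleate, changed by −0.78 ± 0.034 and −0.72 ± 0.032, and Scd2 went from 1371 ± 19.3 to 831 ± 10.7 CPM. The branch that turns isoprenyl diphosphates into prenyl groups, dolichol and ubiquinone had 2 higher, 4 lower and 7 not past the threshold of 13, with a median of −0.11. Icmt, the methyltransferase of prenylated proteins, fell (−0.34 ± 0.040) and Nus1, a subunit of the dolichol-making enzyme, rose (0.25 ± 0.040).

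In the other 3 lists calls went both ways, and the share that passed was not set apart from that of all genes by any test. Of 10 genes of SREBP processing and sterol-regulated degradation 2 rose, 2 fell and 6 did not pass (median −0.03). Erlin2, which takes part in degradation at the endoplasmic reticulum, rose (0.57 ± 0.042), and the ubiquitin ligase gene Rnf145 fell (−0.50 ± 0.040). Of 22 tested genes of sterol uptake and intracellular transport 8 rose and 2 fell (median 0.07): Scarb1, the receptor of high-density lipoprotein, fell from 24.8 ± 0.928 to 14.1 ± 0.50 CPM (−0.82 ± 0.080), and Npc2, which binds cholesterol in the lysosome, rose from 514 ± 22.9 to 651 ± 18.4 CPM (0.34 ± 0.036). Of 17 tested further LXR targets, efflux and oxysterol genes 6 rose and 4 fell (median 0.04). Srebf1 is in this list and in that of SREBP processing, and counts among the falls of both (−0.36 ± 0.044). Abca7, a transporter related to Abca1, fell (−1.68 ± 0.092), and the phospholipid transfer protein gene Pltp rose (0.56 ± 0.052).

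**Figure D4:**
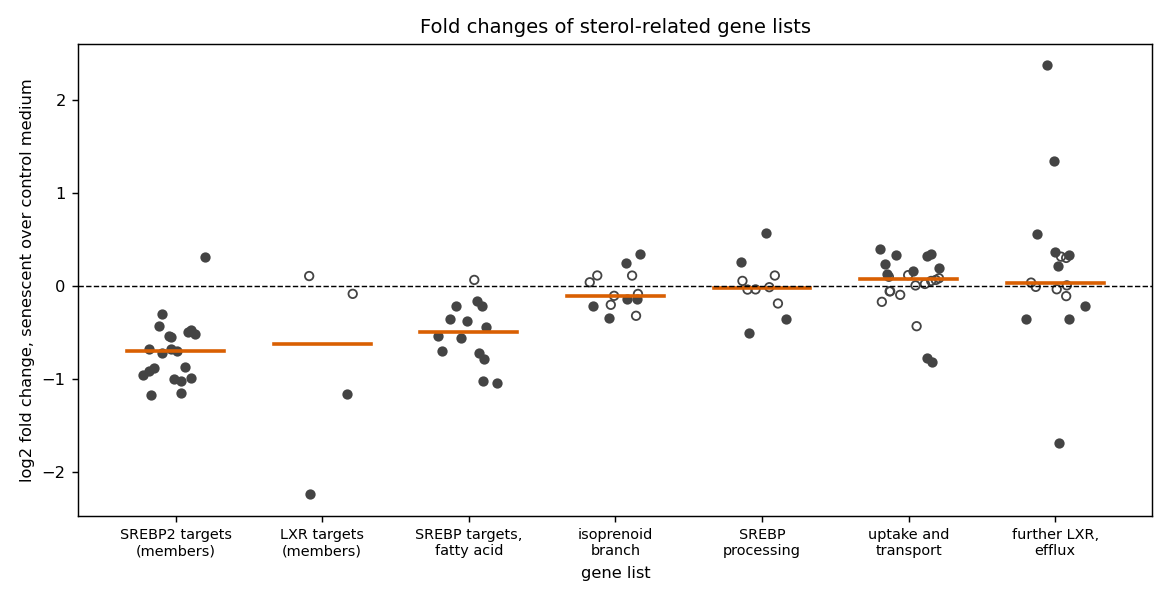
Log2 fold change of each tested gene (points) by list, senescent over control macrophage medium; filled points passed the threshold, open points did not, orange lines are list medians and the dashed line is the median of all tested genes. The SREBP2 targets and the fatty acid targets of SREBP lie mostly under the dashed line (medians −0.69 and −0.49), and the other further lists lie around it.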

How the data were processed

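RNA of 6 libraries was sequenced on an Illumina instrument from about 600 ng each with paired reads of 150 bases (labels' protocols). The deposited table holds the authors' estimated counts per Ensembl gene, not normalized; STAR, DESeq2 and build mm39 are named per the submitters' processing notes, while counting tool, annotation and strand use were not stated in any label or header. Genes overlapping on opposite strands may therefore share reads. Symbols (18092 of 18124 identifiers), exon-union lengths and overlaps came from GENCODE M21 (GRCm38). Groups come from the sample titles.

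Values were rounded and tested with the edgeR 4.0.16 quasi-likelihood F-test in R 4.3.3 (robust, TMM factors, filterByExpr), with medium as the only term, two-sided, Benjamini-Hochberg over 14644 genes, threshold 0.05; standard errors are the absolute log2 fold change over the square root of F. The script was first tested on simulated data. CPM use TMM-adjusted library sizes. Alternatives were DESeq2 1.42.0, limma 3.58.1 (voom), other scalings, filters, a threshold of 0.01, unrounded values, the most abundant feature removed, each library left out, and the replicate number as a block. All 32 members are named, with the 2 smallest adjusted p of each further list and fixed identity and macrophage markers (other genes are named as stated). Members and lists were chosen with earlier results of these data known, so no list was tested as a set.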

Additional observations from a re-analysis of the deposited data

How the results depend on the processing

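Over the 17 alternatives the 32 genes gave 541 values, of which 533 kept direction and side of the threshold, 4 passed only under the alternative, 3 missed it and 1 changed sign (Soat1, −0.002 with library totals). The 1 value that differed with the replicate number as a block (paired fit) was Abca1, at 0.11 (adjusted p = 0.0171, edgeR); deviations of same-numbered libraries correlated at 0.0187, 0.00189 and 0.0262, so the numbers show no pairing. The median of the SREBP2 targets was −0.78 with library totals and −0.69 to −0.74 with 1 library left out, and that of the LXR targets −0.70 with library totals, −0.085 with at least 10 CPM in 3 libraries (3 genes tested, 1 of them lower) and −0.54 to −0.67 with 1 library left out. With 1 library left out 1 to 4 of the 32 genes were higher, 1 without control replicate 2 (Ebp and Nr1h2 lost), and 25 were lower each time. With all libraries scaled by totals the median of all genes was −0.08. Abcg1, at 17 to 104 counts a library, is the member with the least depth.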

Other observations

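Ch25h, Soat2 and Abca7, sterol genes outside the 32, were picked after their values were seen. Ch25h, which makes 25-hydroxycholesterol and is also an interferon-induced gene, rose from 44, 32 and 32 counts in the control libraries to 111, 79 and 102 counts in senescent medium, or 1.34 ± 0.21 on the log2 scale (adjusted p = 2.10e-06, edgeR). Soat2, the second sterol esterification gene, had 2, 0 and 5 counts in the controls and 16, 11 and 13 in senescent medium and passed the test (adjusted p = 0.00343, edgeR), at levels too low for a useful fold. Abca7 was at 25.7, 23.4 and 25.8 CPM in the controls and at 7.54, 7.46 and 8.27 CPM in senescent medium, while the related Abca1 had no change past the threshold. Control replicate 2 lay below the control mean for 15 of the 21 SREBP2 targets and control replicate 1 above it for 16. The set medians in these libraries were −0.03 and 0.06 on the log2 scale. Shares of all tested genes were not computed for single libraries, so whether this is particular to the set was not tested.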
